A study of Rattus norvegicus with 32 samples.

Results

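Described here is the comparison of 16 anxiety-cue with 16 neutral-cue RNA sequencing libraries, all made from nucleus accumbens shell of rats, with the drug as a covariate, so that it gives the cue effect averaged over cannabidiol (CBD) and vehicle. All 32 libraries of the study entered it: 8 CBD anxiety-cue, 8 vehicle anxiety-cue, 8 CBD neutral-cue and 8 vehicle neutral-cue libraries, sorted by the treatment label, which writes cue for the lemon odour and nocue for the neutral cue. All rats were of WT genotype and all received fear conditioning with shocks, in which either the lemon odour or a neutral cue accompanied the shock. The cue was later placed in anxiety tests, CBD or vehicle was given before those tests, and the tissue was taken after a last shock, so no group was free of shock. Strain, sex, age and dose are not given in the sources used here. Whether every library is 1 rat is not said in the labels, so the p-values measure the spread between these libraries, which may be technical.

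The nucleus accumbens shell is the part of the ventral striatum that links limbic input, among it signals of threat and reward, to behavioural output. Most of its neurons are GABAergic medium spiny neurons that express dopamine receptors of the Drd1 or the Drd2 type, and these lie among interneurons, glia and vessels. CBD is a non-intoxicating constituent of cannabis that has been studied for effects on anxiety. An effect of the cue that does not depend on the drug would appear as genes with the same direction of difference in the CBD and in the vehicle libraries.

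Library totals were 11.65 to 24 M counts, and 17059 genes were tested. The medium spiny neuron genes Drd1 and Drd2 were detected in every library. Detection does not show that each library held the shell alone, and the libraries were not uniform. In 6 libraries the subcortical glutamatergic marker Slc17a6 was at 20 CPM (counts scaled to a common library total) or more, and Drd1 was at most 182.8 CPM there, against at least 258.2 CPM in the other 26. These were 2 CBD anxiety-cue, 1 vehicle anxiety-cue, 0 CBD neutral-cue and 3 vehicle neutral-cue libraries. The cortical glutamatergic marker Slc17a7 reached 877 CPM in CBD neutral-cue library 6 and at most 62.3 CPM elsewhere. The liver transcript Alb was at 20 CPM or more in 4 CBD anxiety-cue, 2 vehicle anxiety-cue, 4 CBD neutral-cue and 0 vehicle neutral-cue libraries. The adipocyte transcript Plin1 was at 5 CPM or more in 2 CBD anxiety-cue, 3 vehicle anxiety-cue, 0 CBD neutral-cue and 5 vehicle neutral-cue libraries. In bulk tissue, fewer cells of a type and less RNA per cell cannot be told apart.

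Averaged over both drugs, the anxiety cue changed no gene past the threshold. By edgeR's quasi-likelihood test with Benjamini-Hochberg adjustment, 0 of 17059 genes (0%) had an adjusted p under 0.05, and the smallest adjusted p was 0.9997. At an unadjusted p under 0.05 there were 580 genes (3.4%), of which 307 (1.8%) were higher and 273 (1.6%) lower with the anxiety cue. DESeq2 and limma-voom also called 0 genes. The genes and lists that follow are therefore described by their values alone. Over all genes, the log2 fold change was above 0 for 48.5% and below 0 for 51.5% in the mean effect.

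Within each drug, the cue difference was measured on separate libraries, so that the CBD and the vehicle comparison share no sample. In CBD libraries 672 genes (3.94%) had an unadjusted p under 0.05, and in vehicle libraries 2175 (12.7%), with 0 past the adjusted threshold in either (0%). Log2 fold changes above and below 0 were near balance, at 48.8% and 51.2% of genes in CBD and 50.1% and 49.9% in vehicle libraries. Of the 17059 genes, 6128 (35.9%) had the same sign in both drugs, 2973 higher (17.4%) and 3155 lower (18.5%) with the anxiety cue. Across genes, which are not independent replicates, the log2 fold changes in CBD and vehicle libraries had a Pearson r of -0.45 and a Spearman rho of -0.36 (17059 genes). The r was negative under each alternative for which it was computed, and its value moved to -0.11 with no filter on low counts, -0.26 with composition covariates and -0.27 without libraries high in Plin1. Of the 672 genes chosen in CBD libraries, 185 (27.5%) had the same sign in vehicle libraries, and of the 2175 chosen in vehicle libraries, 516 (23.7%) had the same sign in CBD libraries. With all libraries, the cue differences in the drug groups thus ran against each other more often than together. The share with the same sign was nearer balance with composition covariates (46%) and without the 7 libraries high in Slc17a6 or Slc17a7 (47.1%). Averaging the cue differences over the drugs gave smaller values. The SD of the log2 fold changes over all genes was 0.15 for the mean effect, against 0.27 within CBD and 0.32 within vehicle. An average of separate estimates also varies less where they are unrelated, so the smaller SD is by itself no sign of opposing effects.

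**Figure D1:**
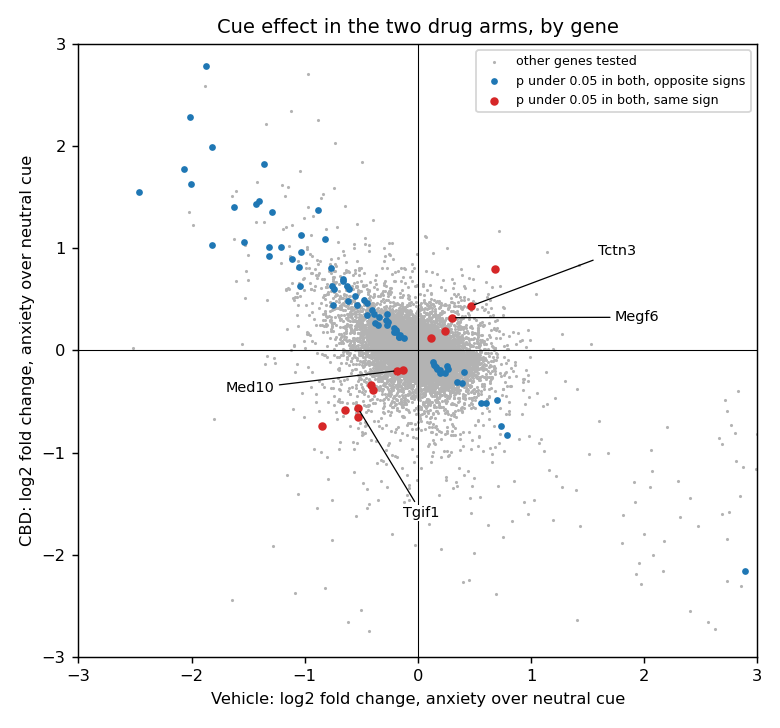
Each point is 1 of 17059 genes, with its log2 fold change of anxiety over neutral cue in vehicle libraries (horizontal) and in CBD libraries (vertical). Red points are the 13 genes with an unadjusted p under 0.05 and the same sign in both, blue points the 76 with opposite signs; the cloud slopes downward (r = -0.45), and 33 genes lie beyond the axis limit of 3.

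At an unadjusted p under 0.05 in each drug separately, 13 genes (0.0762% of those tested) differed the same way and 76 (0.446%) opposite ways. Same-way genes were thus the fewer with all libraries, and their number is no evidence of a cue effect shared by the drugs. Of the 13, 5 (0.0293%) were higher and 8 (0.0469%) lower with the anxiety cue. Gene names were given for 7 of them, namely Tctn3, Spata5l1, Prpf4, Megf6, Med10, Sec14l2 and Tgif1, and the other 6 carry only a locus number. The interaction of cue and drug passed the adjusted threshold for 0 genes (0%), with 2353 (13.8%) at an unadjusted p under 0.05. A fit without the 10 libraries high in Plin1, an alternative added after the data were seen, tested 17565 genes. Calls were common in it and not particular to the genes named next. Of the 17565 genes, the interaction called 1475 and the vehicle comparison 2972. Among the genes printed here, it called Tagln, Acta2, Mms19, Megf6, Drd1, Drd2 and Arid1a higher and Mcub, Metrnl, Grifin, Scd2, Manf, Ndufa11 and Uqcr10 lower with the anxiety cue in vehicle libraries (adjusted p of 0.00824 to 0.0444 by edgeR). That fit left 3 vehicle neutral-cue libraries, of which 2 are among those high in Slc17a6. The counts of same-way and opposite-way genes also moved with the libraries included, as given under the processing.

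Tctn3, which encodes a tectonic protein of the transition zone at the base of the primary cilium, had the smallest p for the mean effect. Its level in CBD anxiety-cue libraries was 17.1, 24.0 and 33.4 CPM (lowest, median, highest), against 15.9, 18.0 and 20.7 CPM in CBD neutral-cue libraries. In vehicle anxiety-cue libraries it was 17.7, 22.2 and 36.4 CPM, against 13.0, 18.1 and 20.7 CPM in vehicle neutral-cue libraries. In each drug, 4 of 8 anxiety-cue libraries lay above every neutral-cue library and the other 4 lay within the neutral range. The anxiety-cue values thus fell into a high and a low set, with none between 19.6 and 25.7 CPM, whereas no neutral-cue library was above 20.7 CPM. The mean log2 fold change was 0.45 (SE 0.108, unadjusted p = 0.000203, adjusted p = 0.9997 by edgeR), with 0.44 in CBD and 0.47 in vehicle libraries.

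Spata5l1, which encodes an AAA-type ATPase, separated the cues with less spread. It was at 6.34, 7.36 and 8.24 CPM in CBD anxiety-cue libraries, against 5.68, 6.34 and 7.50 CPM in CBD neutral-cue libraries. It was at 6.45, 7.17 and 8.38 CPM in vehicle anxiety-cue libraries, against 4.63, 6.40 and 7.01 CPM in vehicle neutral-cue libraries. All 8 anxiety-cue libraries of each drug were above the neutral median of that drug, while the ranges overlapped. The log2 fold changes were 0.21 for the mean (SE 0.0578), 0.19 in CBD and 0.24 in vehicle libraries.

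Prpf4, a component of the spliceosome, differed less than Tctn3 and Spata5l1 but overlapped less between the cues. It averaged 27.0 ± 1.41 CPM in CBD anxiety-cue libraries and 24.8 ± 1.12 CPM in CBD neutral-cue libraries (SD, n = 8 each). It averaged 28.2 ± 1.89 CPM in vehicle anxiety-cue libraries and 26.03 ± 1.32 CPM in vehicle neutral-cue libraries (SD, n = 8 each). Above the highest neutral-cue library lay 7 of 8 anxiety-cue libraries with CBD and 6 of 8 with vehicle. The log2 fold change was 0.12 for the mean (SE 0.0333), in CBD and in vehicle libraries alike. Mms19, which helps to deliver iron-sulfur clusters to DNA repair and replication enzymes, was at a mean log2 fold change of 0.16 (SE 0.0466), with 0.13 in CBD and 0.19 in vehicle libraries. Megf6, a gene for a protein with many EGF-like repeats that was chosen after its values were seen, was at 0.31 (SE 0.0996), with 0.32 in CBD and 0.30 in vehicle libraries.

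**Figure D2:**
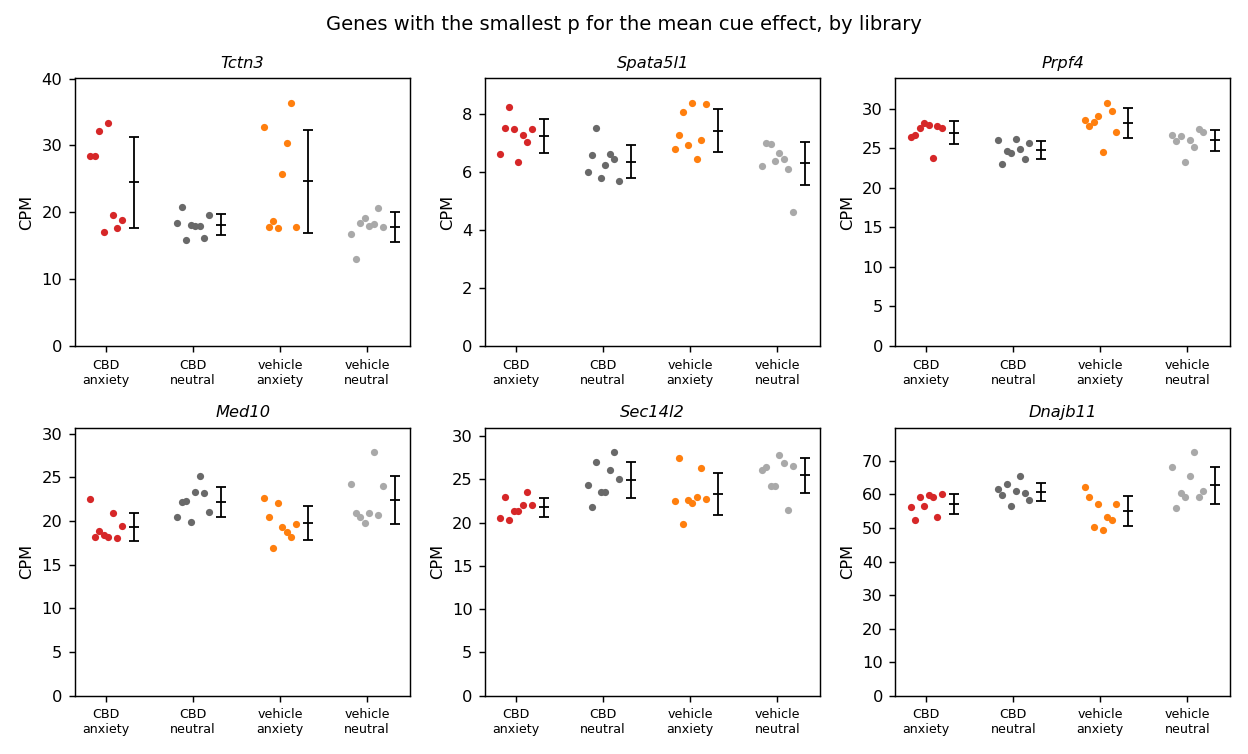
CPM of 6 genes in every library (points) with the mean and SD of each group of 8 beside them; CBD anxiety, CBD neutral, vehicle anxiety and vehicle neutral run left to right. Tctn3 shows a high set of 4 anxiety-cue libraries in each drug, above every neutral-cue library, and Prpf4 has 7 and 6 of 8 anxiety-cue libraries above the neutral range.

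Among the genes that were lower with the anxiety cue, Med10 had the smallest p. It encodes a subunit of Mediator, the complex that links transcription factors to RNA polymerase II. Med10 was at 18.1, 18.6 and 22.5 CPM in CBD anxiety-cue libraries, against 19.9, 22.2 and 25.2 CPM in CBD neutral-cue libraries. It was at 16.96, 19.5 and 22.7 CPM in vehicle anxiety-cue libraries, against 19.8, 20.9 and 27.9 CPM in vehicle neutral-cue libraries. Below the lowest neutral-cue library lay 6 of 8 anxiety-cue libraries with CBD and 5 of 8 with vehicle, and the others overlapped. The mean log2 fold change was -0.19 (SE 0.05002), with -0.20 in CBD and -0.18 in vehicle libraries.

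Sec14l2, which encodes a lipid-binding protein of the Sec14 family, averaged 21.8 ± 1.099 CPM in CBD anxiety-cue libraries and 24.9 ± 2.05 CPM in CBD neutral-cue libraries (SD, n = 8 each). In vehicle libraries it averaged 23.3 ± 2.42 CPM with the anxiety cue and 25.5 ± 2.04 CPM with the neutral cue (SD, n = 8 each). With CBD, all 8 anxiety-cue libraries were below the neutral median, and with vehicle 6 of 8 were. Its log2 fold changes were -0.16 for the mean (SE 0.0442), -0.19 in CBD and -0.13 in vehicle libraries. Tgif1, a homeodomain repressor in TGF-beta signalling that was chosen after its values were seen, was a low-count gene, with medians of 0.661 and 0.556 CPM in CBD and vehicle anxiety-cue libraries against 0.922 and 0.822 CPM in CBD and vehicle neutral-cue libraries. Its mean log2 fold change was -0.55 (SE 0.180), with -0.57 in CBD and -0.53 in vehicle libraries. Zfp707l1, a zinc finger gene, was at -0.29 (SE 0.0781), with -0.37 in CBD and -0.21 in vehicle libraries.

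Which of these same-way genes kept an unadjusted p under 0.05 in both drugs varied as libraries were left out. Tctn3 did so in 32 of 32 fits that each left out 1 library and in 8 of 10 other settings. The corresponding numbers were 31 and 8 for Med10, 30 and 7 for Prpf4, and 28 and 7 for Spata5l1. Megf6 (17 and 4), Tgif1 (9 and 2) and Sec14l2 (8 and 5) did so less often. Of these 7 named genes, only Med10 did so without the libraries high in Alb, and only Med10 without those high in Plin1. Both exclusions were added after the data were seen and left out 10 libraries each, so these p-values rest on fewer libraries. All 13 same-way genes kept the same sign in both drugs under each exclusion. The 7 were picked from the same libraries, so these numbers are not independent support. In none of these fits did any of the 7 pass the adjusted threshold for the mean effect.

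Vascular genes formed, of the 38 lists, the one with the largest share of members that had the same sign in both drugs. Of 23 endothelial and mural markers tested, 17 were higher with the anxiety cue in both drugs and 1 was lower in both, so 78.3% agreed in sign, against 35.9% of all genes. The list median log2 fold change was 0.10 for the mean effect, 0.077 in CBD and 0.11 in vehicle libraries, against -0.0029 over all genes for the mean effect. At an unadjusted p under 0.05 there were 3 members (13%, against 3.4% of all genes), all higher. They were Tagln (transgelin) and Acta2 (smooth muscle actin), which mark vascular smooth muscle, and Pecam1, an adhesion molecule of endothelial cells that was chosen after its values were seen.

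Tagln was at 3.81, 6.66 and 9.16 CPM in CBD anxiety-cue libraries, against 2.93, 4.98 and 6.19 CPM in CBD neutral-cue libraries. It was at 5.29, 7.202 and 8.84 CPM in vehicle anxiety-cue libraries, against 3.09, 5.82 and 8.00 CPM in vehicle neutral-cue libraries. In each drug 7 of 8 anxiety-cue libraries were above the neutral median, and the ranges overlapped. Its mean log2 fold change was 0.41 (SE 0.126), with 0.47 in CBD and 0.36 in vehicle libraries. Acta2 showed a like difference, with a mean log2 fold change of 0.43 (SE 0.150) and 0.43 in each drug, and again 7 of 8 anxiety-cue libraries of each drug were above the neutral median. Pecam1 averaged 19.6 ± 2.36 CPM in CBD anxiety-cue libraries and 17.7 ± 2.38 CPM in CBD neutral-cue libraries, and 20.5 ± 2.18 CPM in vehicle anxiety-cue libraries and 18.2 ± 1.80 CPM in vehicle neutral-cue libraries (SD, n = 8 each).

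The summed level of all 24 listed vascular genes overlapped between the cues. It ran over 500.9 to 658.5 CPM in CBD anxiety-cue libraries and 517.6 to 719.8 CPM in vehicle anxiety-cue libraries, against 463.6 to 659.3 CPM in CBD neutral-cue libraries and 456.6 to 649.3 CPM in vehicle neutral-cue libraries. The list median of the mean effect stayed positive when any 1 library was left out (0.075 to 0.12) and under the other settings (0.058 to 0.11).

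**Figure D3:**
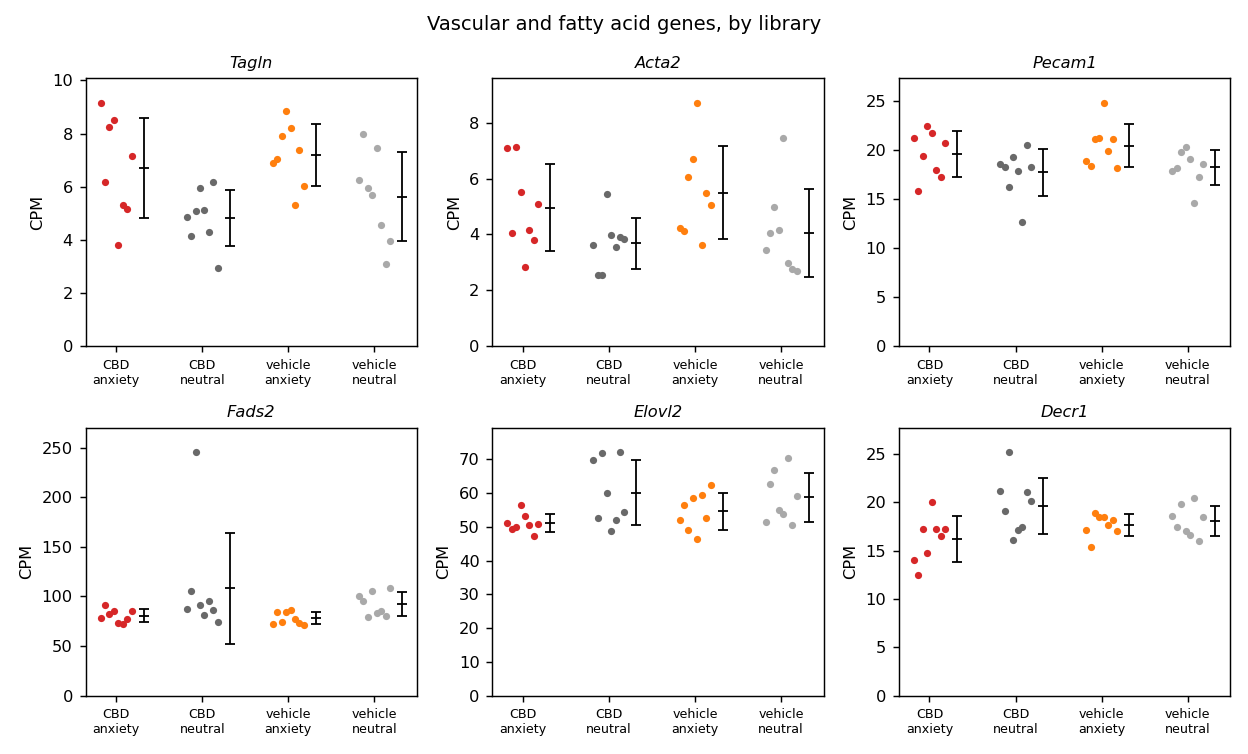
CPM of 3 vascular genes (top) and 3 fatty acid genes (bottom) in every library, with the mean and SD of each group of 8. Tagln, Acta2 and Pecam1 lie somewhat higher in anxiety-cue groups of both drugs, with overlap; for Fads2, a library at 245 CPM stands apart in the CBD neutral-cue group.

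Genes of fatty acid beta oxidation, the breakdown of fatty acids in mitochondria, leaned the other way. Of 25 tested, 15 were lower with the anxiety cue in both drugs and 2 were higher in both (68% with the same sign, against 35.9% of all genes), and the list median log2 fold change was -0.11 for the mean effect, -0.057 in CBD and -0.12 in vehicle libraries. At an unadjusted p under 0.05 there were 5 lower members (20%, against 3.4% of all genes): Hadh, Echs1, Decr1, Cpt2 and Eci1. Echs1, which hydrates enoyl-CoA within the pathway, averaged 44.6 ± 2.66 CPM in CBD anxiety-cue libraries and 48.7 ± 6.15 CPM in CBD neutral-cue libraries (SD, n = 8 each). It averaged 47.4 ± 3.73 CPM in vehicle anxiety-cue libraries and 51.6 ± 5.75 CPM in vehicle neutral-cue libraries (SD, n = 8 each). In each drug 7 of 8 anxiety-cue libraries were below the neutral median, and the log2 fold changes were -0.13 for the mean (SE 0.0490), -0.13 in CBD and -0.12 in vehicle libraries.

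Hadh, the dehydrogenase of the next step, was at 11.8, 14.9 and 17.4 CPM in CBD anxiety-cue libraries, against 12.7, 18.1 and 53.3 CPM in CBD neutral-cue libraries. In vehicle libraries it was at 14.0, 15.4 and 20.01 CPM with the anxiety cue, against 14.3, 19.1 and 22.3 CPM with the neutral cue. The highest value came from CBD neutral-cue library 3, which also had the most Alb of all libraries (227 CPM). Its mean log2 fold change was -0.37 (SE 0.140) with that library and -0.19 without it. Decr1, a reductase for unsaturated fatty acids that was chosen after its values were seen, was at -0.28 in CBD and -0.03 in vehicle libraries, a difference between drugs that did not pass the threshold (adjusted p = 0.361 by edgeR).

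Fads2, the desaturase that takes linoleic acid into the synthesis of longer polyunsaturated fatty acids, was also highest in that library. It was at 72.7, 80.2 and 91.1 CPM in CBD anxiety-cue libraries, against 73.9, 89.8 and 245 CPM in CBD neutral-cue libraries. It was at 71.5, 75.9 and 86.1 CPM in vehicle anxiety-cue libraries, against 79.4, 90.5 and 109 CPM in vehicle neutral-cue libraries. Below the neutral median lay 7 of 8 anxiety-cue libraries with CBD and 8 of 8 with vehicle. The mean log2 fold change of Fads2 was -0.33 (SE 0.110), and without CBD neutral-cue library 3 it was -0.19, with -0.14 in CBD and -0.24 in vehicle libraries. Elovl2, an elongase of polyunsaturated fatty acids, was at -0.17 (SE 0.0588), with -0.24 in CBD and -0.11 in vehicle libraries. Scd2, a stearoyl-CoA desaturase of the brain, was at -0.15 (SE 0.0590), with -0.06 in CBD and -0.24 in vehicle libraries. Of the 38 tested genes of polyunsaturated fatty acid metabolism, 11 were lower in both drugs and 2 higher in both (34.2% with the same sign, near the 35.9% of all genes), and 5 (13.2%, against 3.4% of all genes) had an unadjusted p under 0.05, all lower.

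Cholesterol synthesis genes were lower with the anxiety cue in the mean effect for 23 of 23 tested, with a list median of -0.12. The median was -0.013 in CBD and -0.23 in vehicle libraries. The same sign in both drugs was seen for 12 members (52.2%, against 35.9% of all genes), and all 12 were lower. In CBD libraries 13 members were lower and 10 higher, and in vehicle libraries 22 were lower and 1 higher. Hmgcs1, which makes HMG-CoA at the head of the pathway, and Cyp51, the lanosterol demethylase, had an unadjusted p under 0.05 (2 genes, 8.7%, against 3.4% of all genes). Hmgcs1 was at 108, 129 and 152 CPM in CBD anxiety-cue libraries, against 98.1, 132 and 304 CPM in CBD neutral-cue libraries. In vehicle libraries it was at 104, 125 and 154 CPM with the anxiety cue, against 110, 149 and 241 CPM with the neutral cue. The neutral-cue groups reached higher, and without CBD neutral-cue library 6 the mean log2 fold change of Hmgcs1 was -0.15, against -0.26 with it. Without the 7 libraries high in Slc17a6 or Slc17a7 it was -0.10.

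Microglial markers were lower in the mean effect for 18 of 19 tested. The same sign in both drugs was seen for 11 (57.9%, against 35.9% of all genes), and all 11 were lower. In CBD libraries 12 markers were lower and 7 higher, and in vehicle libraries 18 were lower and 1 higher. The list median was -0.10 for the mean effect, -0.038 in CBD and -0.17 in vehicle libraries. Tyrobp, the signalling adaptor of microglial receptors, and P2ry13, an ADP receptor of resting microglia, had an unadjusted p under 0.05 (2 genes, 10.5%, against 3.4% of all genes). P2ry13 was at 5.26, 8.34 and 11.1 CPM in CBD anxiety-cue libraries, against 6.16, 9.67 and 11.5 CPM in CBD neutral-cue libraries. In vehicle libraries it was at 6.74, 7.96 and 11.1 CPM with the anxiety cue, against 7.71, 9.77 and 12.4 CPM with the neutral cue. The ranges overlapped widely, and the log2 fold change was -0.22 for the mean (SE 0.0941) and in each drug. Tyrobp was at -0.30 (SE 0.119), with -0.11 in CBD and -0.49 in vehicle libraries. The summed microglial markers were 451.7 to 578.8 CPM in CBD anxiety-cue libraries and 433.1 to 665.2 CPM in vehicle anxiety-cue libraries, against 436.3 to 607 CPM in CBD neutral-cue libraries and 484.9 to 645.2 CPM in vehicle neutral-cue libraries.

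Chaperones of the endoplasmic reticulum fold secreted and membrane proteins, and the unfolded protein response raises them when folding is overloaded. Of 29 tested genes of this list, 24 were lower with the anxiety cue in the mean effect and 7 had an unadjusted p under 0.05 (24.1%, against 3.4% of all genes), all lower. The list median was -0.079 for the mean effect, 0.012 in CBD and -0.17 in vehicle libraries, and 10 members (34.5%) had the same sign in both drugs, near the 35.9% of all genes. Some of these genes carry the endoplasmic reticulum stress element in their promoters, which is CCAAT and CCACG with 9 bases of any kind between them. It was searched on both strands in windows that reach from 250 bases before to 50 bases after the gene start, taken from RefSeq (GRCr8). It was found in 7 of the 24 chaperone-list promoters with a window (29.2%). Among windows of all tested genes it was in 17 of 12542 (0.136%), and among those of all genes in 21 of 27457 (0.0765%). The list was written from genes of this response, so the comparison is a description and not a test. The sterol regulatory element, TCAC and CCAC with any base between them, was searched in the same way. It was found in 0 of 17 cholesterol synthesis promoters, against 138 of 12542 windows of tested genes (1.1%). The promoters of 3 holders of the endoplasmic reticulum stress element are shown. Dnajc3 was lower in both drugs, while Hspa5 and Xbp1 had values near 0 in CBD and below 0 in vehicle libraries. Capitals mark the element, whose first letters are a CCAAT box.

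Hspa5: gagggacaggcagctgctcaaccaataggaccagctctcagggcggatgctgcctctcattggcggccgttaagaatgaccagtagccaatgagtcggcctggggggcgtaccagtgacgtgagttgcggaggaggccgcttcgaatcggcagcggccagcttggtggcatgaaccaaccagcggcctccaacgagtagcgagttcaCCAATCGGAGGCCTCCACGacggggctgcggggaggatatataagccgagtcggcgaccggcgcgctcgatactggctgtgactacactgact
Dnajc3: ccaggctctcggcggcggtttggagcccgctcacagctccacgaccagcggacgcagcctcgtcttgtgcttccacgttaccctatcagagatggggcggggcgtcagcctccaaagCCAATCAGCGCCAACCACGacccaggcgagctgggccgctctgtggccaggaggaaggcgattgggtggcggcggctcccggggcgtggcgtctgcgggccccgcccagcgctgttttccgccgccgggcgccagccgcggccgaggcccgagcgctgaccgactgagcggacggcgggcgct
Xbp1: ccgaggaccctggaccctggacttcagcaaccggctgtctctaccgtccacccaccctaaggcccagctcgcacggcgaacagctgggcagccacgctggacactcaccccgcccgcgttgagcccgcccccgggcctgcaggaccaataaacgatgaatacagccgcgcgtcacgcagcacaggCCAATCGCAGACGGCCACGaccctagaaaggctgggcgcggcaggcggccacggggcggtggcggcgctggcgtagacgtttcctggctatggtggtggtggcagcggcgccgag

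The windows lie on the plus strand of GRCr8 at chr3:38452766-38453065 (Hspa5), chr15:102432417-102432716 (Dnajc3) and chr14:84604373-84604672 (Xbp1), and the element begins at -43, -133 and -65 from the gene start, in that order. A match of letters is a description and not evidence of binding in these libraries. Dnajc3, which encodes a co-chaperone that restrains the kinase PERK and was chosen after its values were seen, was at a mean log2 fold change of -0.15 (SE 0.0588), with -0.12 in CBD and -0.17 in vehicle libraries. Hspa5, the main chaperone of the compartment, also called BiP, was at 450, 518 and 637 CPM in CBD anxiety-cue libraries, against 449, 520 and 594 CPM in CBD neutral-cue libraries. In vehicle libraries Hspa5 was at 384, 483 and 550 CPM with the anxiety cue, against 448, 591 and 636 CPM with the neutral cue. With CBD the ranges nearly coincided, and with vehicle all 8 anxiety-cue libraries were below the neutral median. Hspa5 was thus at 0.01 in CBD and -0.27 in vehicle libraries, a difference between drugs that did not pass the threshold (adjusted p = 0.339 by edgeR). Xbp1, a transcription factor of the response that was chosen after its values were seen, was at 0.02 in CBD and -0.16 in vehicle libraries.

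Dnajb11, a co-chaperone of Hspa5, had the smallest p of this list for the mean effect. It was at 52.4, 57.8 and 60.2 CPM in CBD anxiety-cue libraries, against 56.7, 60.7 and 65.4 CPM in CBD neutral-cue libraries. It was at 49.3, 55.3 and 62.1 CPM in vehicle anxiety-cue libraries, against 56.0, 60.8 and 72.5 CPM in vehicle neutral-cue libraries. Below the lowest neutral-cue library lay 4 of 8 anxiety-cue libraries in each drug. The log2 fold changes were -0.14 for the mean (SE 0.0383, unadjusted p = 0.00101 by edgeR), -0.09 in CBD and -0.19 in vehicle libraries. Sdf2l1 and Manf, an endoplasmic reticulum co-factor and a secreted stress protein, were at mean log2 fold changes of -0.28 (SE 0.104) and -0.15 (SE 0.0594), of which -0.13 and -0.02 were seen in CBD and -0.43 and -0.28 in vehicle libraries.

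Several neuronal genes had large negative mean values that shrank without CBD neutral-cue library 6, the library high in Slc17a7. Cck, a neuropeptide gene, was at 4.03, 6.71 and 15.2 CPM in CBD anxiety-cue libraries, against 5.68, 8.86 and 267 CPM in CBD neutral-cue libraries. In vehicle libraries Cck was at 4.26, 6.96 and 8.91 CPM with the anxiety cue, against 4.93, 8.36 and 18.3 CPM with the neutral cue. The medians differed little beside the single value of 267 CPM. The mean log2 fold change of Cck was -1.54 (SE 0.480) with that library and -0.54 without it, when it was -0.59 in CBD and -0.50 in vehicle libraries.

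The same library moved the activity-regulated genes. Bdnf, a neurotrophin gene, was at -2.08 (SE 0.702) with it and -0.62 without it, when its log2 fold change in CBD libraries was 0.63 and in vehicle libraries -1.64. Rtn4rl2, a receptor gene of the Nogo receptor family that was among the 5 lower genes with the smallest p, was at -1.77 (SE 0.532) with it and -0.60 without it. The Rtn4rl2 medians in CBD libraries were 0.859 CPM with the anxiety cue and 0.720 CPM with the neutral cue. In vehicle libraries they were 0.501 and 1.40 CPM, so the medians differed in opposite directions. Nr4a2, a nuclear receptor of the immediate early class, was chosen after its values were seen. It was at -0.98 (SE 0.425) with CBD neutral-cue library 6 and -0.11 without that library. Dusp6, a phosphatase that acts on ERK, was at -0.30 (SE 0.117) with it and -0.18 without it, and there -0.17 in CBD and -0.18 in vehicle libraries. Of the 30 immediate early genes tested, 15 were higher and 15 lower in the mean effect, 3 (10%, against 3.4% of all genes) had an unadjusted p under 0.05, all lower, and 7 (23.3%, against 35.9% of all genes) had the same sign in both drugs. Fos, the most used marker of recent neuronal activity, averaged 15.7 ± 4.87 CPM in CBD anxiety-cue libraries and 14.4 ± 9.58 CPM in CBD neutral-cue libraries, and 13.1 ± 5.62 CPM in vehicle anxiety-cue libraries and 14.8 ± 4.89 CPM in vehicle neutral-cue libraries (SD, n = 8 each). Its mean log2 fold change was -0.02 (SE 0.196) and turned to 0.14 without CBD neutral-cue library 6.

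**Figure D4:**
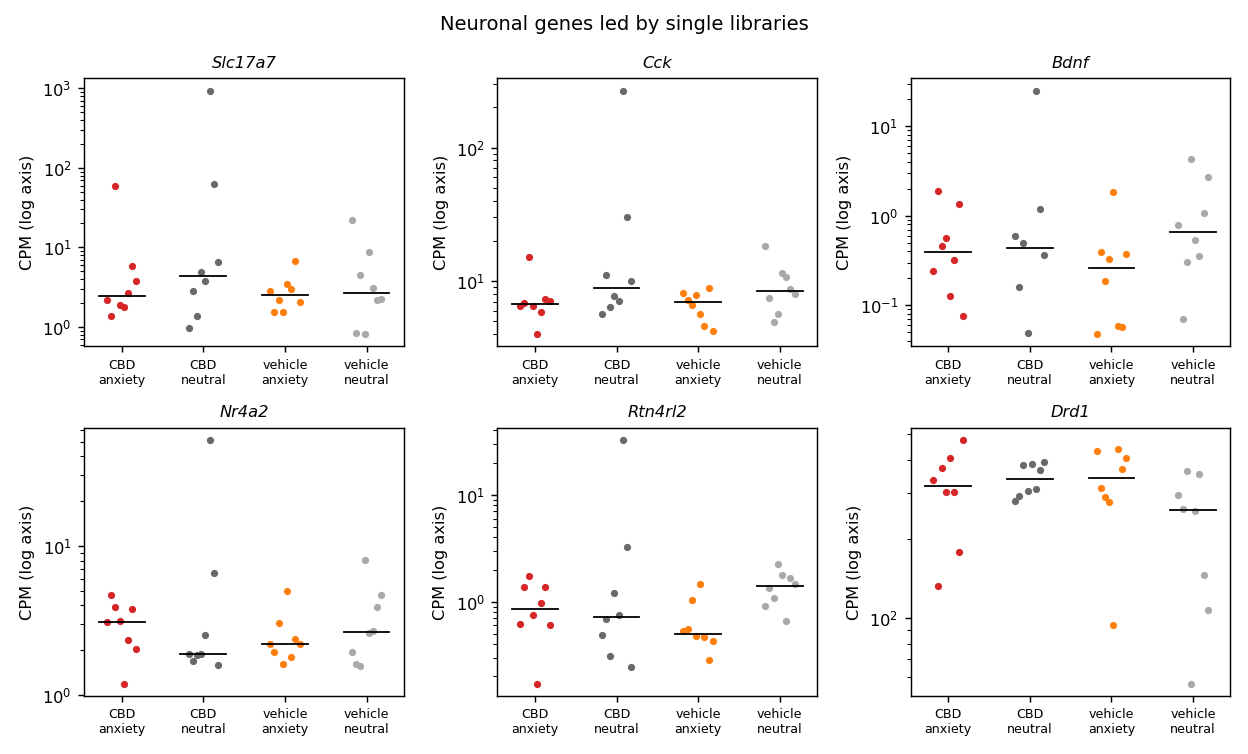
CPM on a log axis of 6 neuronal genes in every library, with a line at the median of each group of 8; a Bdnf value of 0 in the CBD neutral-cue group is not drawn. Slc17a7, Cck, Bdnf, Nr4a2 and Rtn4rl2 share a CBD neutral-cue library far above the others, and Drd1 has 2 CBD anxiety-cue, 1 vehicle anxiety-cue and 3 vehicle neutral-cue libraries below the rest.

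Genes whose cue difference ran opposite ways in the drugs had mean values between those of the drugs, which were not all small. Among these genes, Postn was at a mean log2 fold change of -0.45 and Capg at -0.41. The 76 such genes were led in the interaction by Mcub, an inhibitory subunit of the mitochondrial calcium uniporter. Mcub was at 0.403, 1.32 and 1.68 CPM in CBD anxiety-cue libraries, against 0.325, 0.586 and 1.20 CPM in CBD neutral-cue libraries. In vehicle libraries it was at 0.400, 0.563 and 0.787 CPM with the anxiety cue, against 0.583, 1.02 and 2.96 CPM with the neutral cue. The anxiety-cue libraries were the higher with CBD (7 of 8 above the neutral median) and the lower with vehicle (8 of 8 below it). Mcub was thus at 0.92 in CBD and -1.31 in vehicle libraries, with a mean of -0.21 (SE 0.300). Metrnl, a secreted factor, was at 0.60 and -0.74, Capg, an actin-capping protein, at 1.03 and -1.82, and Grifin, a galectin-related gene, at 1.41 and -1.63, in CBD and vehicle libraries in that order. The smallest adjusted p of the interaction was 0.321 by edgeR with all libraries. Without vehicle anxiety-cue library 5, Mcub, Metrnl and Grifin passed it (adjusted p = 0.0448 each by edgeR), and without the 10 libraries high in Plin1 they passed it at 0.0229, 0.0377 and 0.0151. Without the 7 libraries high in Slc17a6 or Slc17a7, Capg, Postn and Metrnl passed the vehicle comparison (adjusted p = 0.0109, 0.0109 and 0.0377 by edgeR), all lower with the anxiety cue.

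Medium spiny neuron markers were of this kind: 29 of 30 tested were higher in the mean effect (median 0.16), but the median was -0.072 in CBD and 0.44 in vehicle libraries, and 4 (13.3%, against 35.9% of all genes) had the same sign in both. Drd1 was at 132, 319 and 475 CPM in CBD anxiety-cue libraries, against 278, 338 and 394 CPM in CBD neutral-cue libraries. In vehicle libraries Drd1 was at 94.8, 340 and 439 CPM with the anxiety cue, against 56.6, 258 and 362 CPM with the neutral cue. The lowest values in 3 of these groups belong to the 6 libraries high in Slc17a6, whose part in the list medians was not tested apart from leaving them out. Without them and CBD neutral-cue library 6, the mean log2 fold change of Drd1 was 0.15, against 0.20 with all libraries.

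Subunits of the respiratory chain, encoded in the nucleus, also had opposite medians. Complex I subunits were at a mean median of -0.073 (36 genes), with 0.026 in CBD and -0.17 in vehicle libraries, and 12 were lower in both drugs. Subunits of complexes II to V were at -0.059 (39 genes), with 0.024 in CBD and -0.16 in vehicle libraries, and 14 were lower in both. Of cytosolic ribosomal protein genes, whose counts are uncertain because of near-identical copies, 73 of 73 were lower in the mean effect, at a median of -0.067, with 0.021 in CBD and -0.15 in vehicle libraries. The share of members with the same sign in both drugs was 36.1%, 35.9% and 34.2% in these lists, near the 35.9% of all genes.

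**Figure D5:**
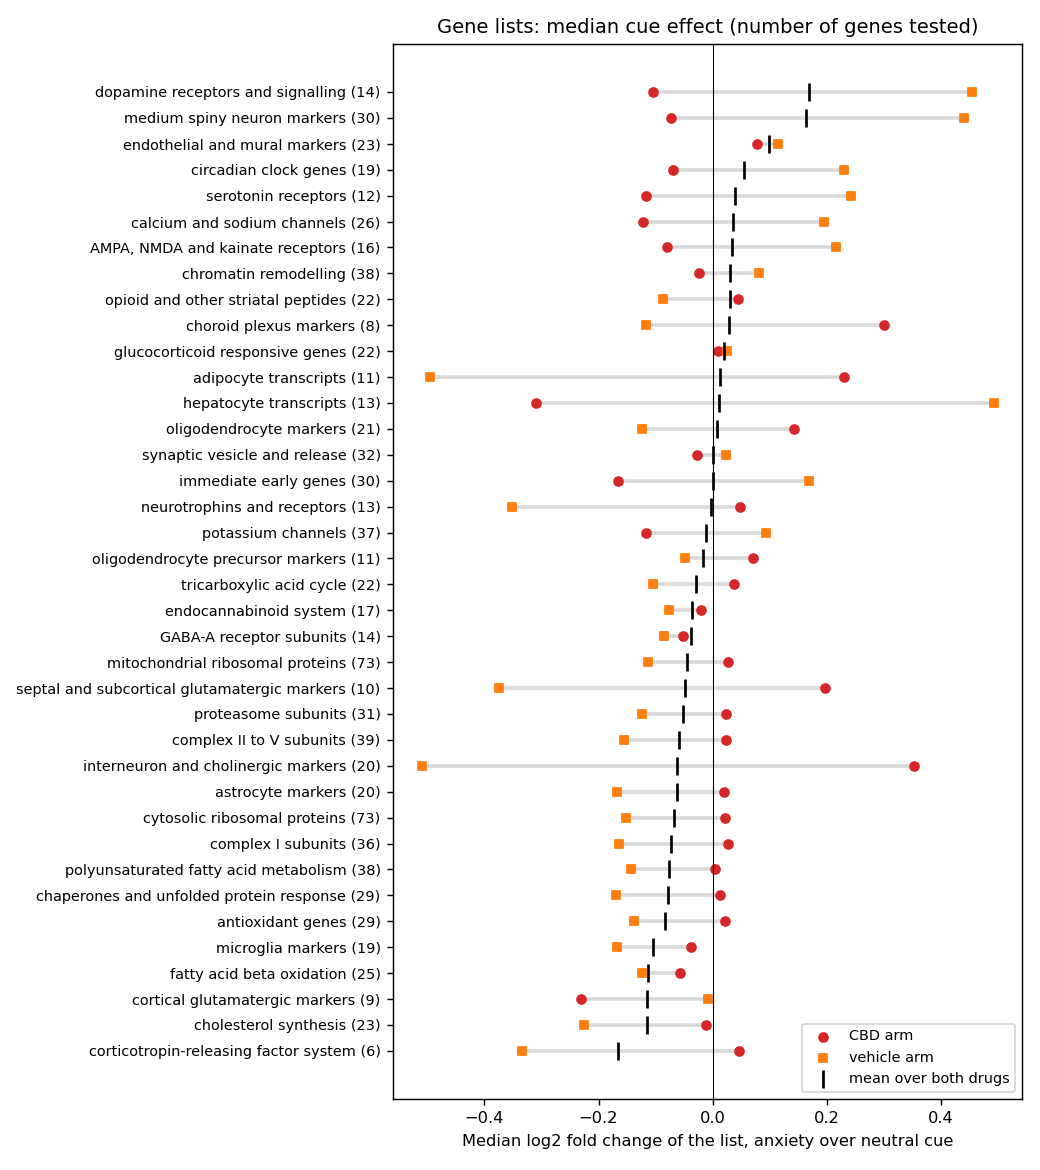
Median log2 fold change of anxiety over neutral cue for 38 gene lists, in CBD libraries (red circles), in vehicle libraries (orange squares) and for the mean over both drugs (black bars), with the number of genes tested in parentheses. Circles and squares lie on opposite sides of 0 for most lists; endothelial and mural markers lie at 0.077 and 0.11, and fatty acid beta oxidation at -0.057 and -0.12.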

How the data were processed

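Per the labels' protocols, RNA was isolated with a Zymo kit, and polyA-selected libraries were made and sequenced (Illumina) by a commercial service. The values are read counts per gene as the authors deposited them, for 34322 symbols, of which 28874 (84.1%) matched RefSeq GRCr8. STAR, featureCounts and DESeq2 are named in the submitters' processing notes, as are builds mRatBN7.2 and Rnor_6.0, without saying which served for what. Tool versions, and whether counting used strand, are not given in the sources used here; counts of overlapping genes are uncertain for that reason.

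Counts were tested with edgeR 4.0.16 (limma 3.58.1, R 4.3.3). The function filterByExpr kept 17059 genes and left out 17263, TMM scaled the libraries, and a quasi-likelihood model of drug plus cue over all 32 libraries gave the mean cue effect. A model with a mean per group gave the cue effect within each drug and the interaction. Adjustment was by Benjamini-Hochberg over all genes tested. CPM are on TMM-scaled library sizes, except for the Slc17a6, Slc17a7, Alb, Plin1 and Drd1 limits that set libraries apart, which are on plain totals. No pair of libraries in a group agreed within sampling noise (chi-square of 5.56 to 112 per degree of freedom over 112 pairs). The scripts were tested on simulated data.

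The genes named were the 5 higher and 5 lower with the smallest p for the mean effect, the 5 with the smallest interaction p, the members of each list with the smallest p and a preset group, not all of which are printed. Genes chosen outside that rule are marked. The comparison, the 38 lists and this rule were chosen with earlier results of these data known. Genes encoded by the mitochondrial genome are not reported here. DESeq2 1.42.0, voom with quality weights, other filters and scalings, composition covariates and each library left out were tried as alternatives.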

Additional observations from a re-analysis of the deposited data

Results flagged for a closer look

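For the 46 genes whose values are printed, each of the 4 groups of 8 libraries was searched for a library whose gap to its nearest neighbour exceeded Dixon's limit. This marked 26 of 184 groups (14.1%). For normally distributed values the limit marks about 1 in 20. The 46 genes were chosen from these same libraries and share them, so the 14.1% is a description and no measure of an excess over chance. CBD neutral-cue library 6 held 8 of them and vehicle anxiety-cue library 5 held 5.

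CBD neutral-cue library 6 was the highest of its group for 8 genes: Cck at 267 CPM (next 30.0), Bdnf at 25.0 (next 1.20), Nr4a2 at 51.1 (next 6.63), Rtn4rl2 at 32.3 (next 3.22), Fos at 36.9 (next 15.9), Dusp6 at 31.6 (next 16.2), Hmgcs1 at 304 (next 161) and Cnr1 at 284 CPM (next 67.8). Vehicle anxiety-cue library 5, one of those high in Slc17a6, was the lowest of its group for Drd1 at 94.8 CPM (next 276) and Drd2 at 54.0 (next 163), and the highest for Cnr1 at 111 (next 65.3), Bdnf at 1.86 (next 0.391) and Metrnl at 7.14 CPM (next 4.37). CBD neutral-cue library 3 was the highest for Fads2 at 245 CPM (next 106) and Hadh at 53.3 CPM (next 19.96). CBD anxiety-cue library 3 was the highest for Slc17a7 at 58.9 CPM (next 5.89) and Cck at 15.2 CPM (next 7.32).

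The other values that stood apart were scattered over libraries. High ones were Postn at 10.7 CPM in CBD anxiety-cue library 2, Sdf2l1 at 24.9 CPM in CBD neutral-cue library 7, Grifin at 11.7 CPM in vehicle neutral-cue library 4 and Echs1 at 64.0 CPM in vehicle neutral-cue library 6. Low ones were Prpf4 at 23.8 CPM in CBD anxiety-cue library 6, Capg at 1.11 CPM in CBD neutral-cue library 2, Zfp707l1 at 3.12 CPM in CBD neutral-cue library 4, Tctn3 at 13.0 CPM in vehicle neutral-cue library 2 and Spata5l1 at 4.63 CPM in vehicle neutral-cue library 8. No gene's cue effect differed between CBD and vehicle past the adjusted threshold of the edgeR interaction test (0 genes).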

How the results depend on the processing

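The mean cue effect called 0 genes under every alternative run. Genes at an unadjusted p under 0.05 (580) numbered 1116 with voom, 1441 with no filter on low counts, 1021 without the 7 libraries high in Slc17a6 or Slc17a7, 1288 in vehicle libraries alone, 965 in CBD libraries alone, 274 without libraries high in Alb and 1396 without those high in Plin1, and 455 to 840 with 1 library left out. The CBD comparison called 0 genes throughout. The vehicle comparison called 13 of 17244 genes without the 7 libraries and 2972 of 17565 without those high in Plin1. The interaction called 1475 of 17565 without those high in Plin1 and 10 of 17136 without vehicle anxiety-cue library 5. With 1 library left out it thus called 0 to 10.

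Same-way genes (13) numbered 36 with voom, 31 with no filter, 8 with composition covariates, 26 without the 7 libraries, 4 without libraries high in Alb and 40 without those high in Plin1. With 1 library left out they numbered 8 to 21: 8 without CBD anxiety-cue library 3, CBD neutral-cue library 2 or 6, and 21 without vehicle neutral-cue library 2. Opposite-way genes (76) numbered 240, 136, 22 and 25 under the first 4 of these settings, 42 with liver and fat covariates and 131 without libraries high in Plin1. With 1 library left out they numbered 27 to 220: 49, 27, 151 and 41 without CBD anxiety-cue libraries 1, 2, 5 and 7, 220 without vehicle anxiety-cue library 5, 50 without CBD neutral-cue library 8 and 124 without vehicle neutral-cue library 3. The share of genes with the same sign was 33.1 to 47.1% across the other settings, and r between the drugs was -0.54 to -0.32 with 1 library left out and -0.46 to -0.11 otherwise. The causes were not tested.

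Mean log2 fold changes that turned sign were, in CBD libraries alone, Arid1a -0.017, Drd2 -0.037, Drd1 -0.12, Hspa5 0.013, Xbp1 0.021, Fos 0.13, Metrnl 0.60, Mcub 0.92, Capg 1.03, Grifin 1.41 and Postn 1.56. They were Fos 0.043 with liver and fat covariates, Cnr1 0.023, Nr4a2 0.070 and Fos 0.20 with composition covariates, and Cnr1 0.017, Grifin 0.028, Mcub 0.040 and Fos 0.21 with voom. Without the 7 libraries they were Nr4a2 0.028, Cnr1 0.090 and Fos 0.20, and without libraries high in Plin1 Grifin 0.021. With 1 library left out, Grifin ran over -0.33 to 0.22 and Fos over -0.10 to 0.14. No paired analysis was run because the labels give no pairing. The sample titles are numbers, even for CBD and odd for vehicle libraries, and they ran in blocks by cue. Titles 4 to 8, 22 to 32 and 45 to 47 were anxiety-cue libraries, and 9 to 19 and 34 to 44 neutral-cue libraries. What the numbers stand for is not given. With the title number as a covariate, 663 genes had an unadjusted p under 0.05 and 0 an adjusted p under 0.05 by edgeR.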

Other observations

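Chromatin remodelling genes were higher with the anxiety cue in the mean effect for 27 of 38 tested, at a median log2 fold change of 0.030, with -0.025 in CBD and 0.081 in vehicle libraries. Of these genes, 3 (7.89%, against 3.4% of all genes) had an unadjusted p under 0.05 and 28.9% had the same sign in both drugs, against 35.9% of all genes. Arid1a, a subunit of the BAF remodelling complex, was at 185, 219 and 243 CPM (lowest, median, highest) in CBD anxiety-cue libraries, against 190, 216 and 254 CPM in CBD neutral-cue libraries. In vehicle libraries it was at 200, 227 and 253 CPM with the anxiety cue, against 154, 184 and 217 CPM with the neutral cue. The CBD groups overlapped throughout, while 7 of 8 vehicle anxiety-cue libraries lay above every vehicle neutral-cue library. Its log2 fold changes were 0.14 for the mean (SE 0.0583), -0.02 in CBD and 0.30 in vehicle libraries. The difference between drugs did not pass the threshold with all libraries (adjusted p = 0.321 by edgeR) and passed it without the 10 libraries high in Plin1 (0.0291).

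Of 17 endocannabinoid genes tested, 5 (29.4%, against 35.9% of all genes) had the same sign in both drugs and 0 had an unadjusted p under 0.05 for the mean effect. Cnr1, the cannabinoid receptor of neurons, was at a mean log2 fold change of -0.40 (SE 0.263) and at -0.12 without CBD neutral-cue library 6. Oligodendrocyte markers were higher with the anxiety cue in CBD libraries for 21 of 21 tested (median 0.14) and lower in vehicle libraries for 20 of 21 (median -0.12), which left a mean median of 0.0082. Interneuron and cholinergic markers showed the widest spread of medians between the drugs, at 0.35 in CBD and -0.51 in vehicle libraries, with hepatocyte transcripts at -0.31 and 0.49 and adipocyte transcripts at 0.23 and -0.50. Of 22 glucocorticoid responsive genes, 5 (22.7%, against 35.9% of all genes) had the same sign in both drugs, at a median of 0.020 for the mean effect.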
